A study of Mus musculus with 6 samples.

Results

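The genes described here are 41 enzymes, carriers and regulators of fatty acid oxidation, ketone body metabolism and the tricarboxylic acid (TCA) cycle, followed in mouse colonic mucosa. They were chosen by name. All probes of the array whose single gene symbol is one of the 41 were taken, and each probe was kept apart where a gene had several. Of the 41 genes, 38 had at least 1 of the 66 probes found, among 17709 genes with a probe of 1 symbol. Etfb, Slc25a20 and Suclg2 had no probe here. A probe was used where its signal was above background (detection p under 0.01) on at least 1 of the 6 arrays, which left 52 probes of 35 genes, 45 of them above background on all 6 arrays. The probes of Cpt1a, Eci2 and Sdha were not above background on any array, and 14 of the 66 probes were left out for this reason. Of the 35 genes, 22 were read by 1 probe and 13 by several.

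The mice were 8 weeks old and of the FVB/N6 strain, and were either wild type (WT) or carried a knockout of Foxo4 (Foxo4_KO), a forkhead transcription factor. For each genotype, mucosa was taken from untreated mice, from mice 2 days after an enema of 50% ethanol, and from mice 2 days after an enema of trinitrobenzene sulfonic acid (TNBS, labelled 250 mg) in 50% ethanol. TNBS is a hapten that provokes colitis when ethanol has opened the mucosal barrier, so the ethanol enema is its vehicle control. Mucosa of 5 mice was pooled per group and each pool was read on 1 Illumina bead array, so there were 6 samples and no replicate of any group. Which exons the knockout removes and in which cells it acts are not given in the labels.

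Mitochondrial beta-oxidation shortens fatty acids by repeated rounds of dehydrogenation, hydration, a second dehydrogenation and thiolysis, with acyl-CoA dehydrogenases of different chain-length preference for the first step. The acetyl-CoA it yields enters the TCA cycle, and the electrons pass through electron transfer flavoprotein to the respiratory chain. In the colon these pathways are best known for burning butyrate, a short-chain fatty acid made by gut bacteria and the main fuel of surface colonocytes. The nuclear receptor PPAR alpha (Ppara) and the coactivator PGC-1 alpha (Ppargc1a) are known to drive many of these genes in liver and muscle.

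The sequences of 3 genes are shown because Acads and Hao2 read more than 2-fold lower after TNBS than after ethanol in the knockout, whereas Mdh2 read highest in that pool. Each is the 250 bases before the RefSeq transcription start, from RefSeq on build GRCm38.p6, written 5′ to 3′ on the gene's strand. They lie at chr5:115119347-115119596 (minus strand) for Acads, chr3:98893231-98893480 (minus strand) for Hao2 and chr5:135778399-135778648 (plus strand) for Mdh2. Capitals mark GGGCGG (a GC box) and TGACGTCA (a cyclic AMP response element), found on either strand.
Acads: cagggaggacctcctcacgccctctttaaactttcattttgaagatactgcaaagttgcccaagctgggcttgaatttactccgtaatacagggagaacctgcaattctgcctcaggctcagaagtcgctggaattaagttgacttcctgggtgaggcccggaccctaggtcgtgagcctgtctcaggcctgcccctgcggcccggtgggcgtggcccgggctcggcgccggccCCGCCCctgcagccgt
Hao2: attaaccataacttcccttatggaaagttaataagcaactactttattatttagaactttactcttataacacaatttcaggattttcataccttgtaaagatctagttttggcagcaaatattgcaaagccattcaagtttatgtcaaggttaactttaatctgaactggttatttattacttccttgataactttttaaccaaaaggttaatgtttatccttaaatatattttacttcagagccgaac
Mdh2: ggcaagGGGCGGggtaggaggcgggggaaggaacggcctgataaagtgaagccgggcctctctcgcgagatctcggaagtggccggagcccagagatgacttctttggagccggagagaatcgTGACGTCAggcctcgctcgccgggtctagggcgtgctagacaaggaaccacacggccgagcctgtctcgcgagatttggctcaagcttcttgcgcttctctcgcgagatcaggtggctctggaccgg
Acads holds 1 GC box, Mdh2 holds a GC box and a cyclic AMP response element, and Hao2 holds none of the motifs searched. RefSeq promoters were at hand for 36 of the 41 genes (42 promoters). On either strand, GGGCGG was found in 24 of the 42 (57.1%) against 32.7% of all 32851 promoters, CCAAT in 19 (45.2%) against 33.8%, and TGACGTCA in 4 (9.52%, those of Mdh2 and Ogdh) against 1.55%. The nuclear receptor half-site AGGTCA was found in 7 (16.7%, among them those of Acadm, Acadvl and Cpt1a) against 14.0% of all promoters. The extended half-site TCAAGGTCA, which contains AGGTCA, was in none of the 42 against 0.387% of all. These are matches of letters within these windows.

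Signals are given as log2 values after background correction and quantile normalization, and a difference of 1.00 is 2-fold. Since levels of different probes depend on the probe, values are compared between pools and not between genes. The Foxo4_KO TNBS array stood apart from the others: its correlations with them over 11772 probes were 0.947 to 0.968, against 0.973 to 0.985 among the other 5. Its mean unnormalized signal was also the highest, at 276.7 against 225.3 to 236.9. Markers of other cell types were uneven between pools. The summed linear signal of surface colonocyte markers (5 of 6 genes measured, Krt20 not above background) was 33310 in the Foxo4_KO TNBS pool and 46870 to 53360 in the others, while that of general epithelial markers (6 of 6 genes) was 23110 there and 24380 to 27480 elsewhere. Aqp8, a water channel of surface colonocytes, read 10.12 in the Foxo4_KO TNBS pool and 11.67 to 12.65 in the others. Ileal enterocyte markers (5 of 6 genes) summed to 7252 in the WT and 12390 in the Foxo4_KO TNBS pool, against 790.2 to 1531 without TNBS. Neutrophil markers (4 of 5 genes) summed to 5402 in the Foxo4_KO TNBS pool and at most 505.8 elsewhere, and smooth muscle markers (7 of 8 genes) to 21120 and 18000 in the ethanol and TNBS pools of the knockout against 3116 to 8577 in the rest. Paneth cell markers (5 of 5 genes) summed to 32530 in the Foxo4_KO and 8751 in the WT TNBS pool, against 317.8 to 1690 without TNBS. Adipocyte markers (2 of 6 genes) summed to 613.8 and 623.8 in the TNBS pools against 145.5 to 179.3 in the rest, and fibroblast markers (4 of 5 genes) to 3572 and 3605 in the ethanol and TNBS pools of the knockout against 1120 to 1882. Macrophage (3 of 5 genes), lymphocyte (4 of 5) and red cell markers (1 of 2) ranged over 231.1 to 884.8, 210.9 to 591.5 and 669.3 to 4318. Foxo4 itself was at background level on all 6 arrays, so the genotype labels could not be checked on it. In such bulk samples fewer cells of a type and less RNA per cell cannot be told apart, and the part of these differences in the readings below was not tested.

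No member changed by the test across all 6 pools. In the additive limma fit of genotype and treatment over 11772 probes, 0 of the 52 member probes passed an adjusted p of 0.05 in either direction in any of the 4 contrasts. The share of all probes called was 0.102% higher and 0.0% lower for Foxo4_KO minus WT, 0.0% in both directions for ethanol minus untreated, 0.144% higher and 0.0% lower for TNBS minus ethanol, and 0.289% higher and 0.00849% lower for TNBS minus untreated. The lowest adjusted p of a member was 0.296, 0.999, 0.643 and 0.366 in these contrasts in turn. At an unadjusted p under 0.05, 9 member probes were lower with TNBS than with ethanol (17.3%, against 3.3% of all probes) and 2 were higher (3.85% against 3.77%). For TNBS minus untreated the counts were 9 lower (17.3% against 5.21%) and 0 higher (5.96% of all). For Foxo4_KO minus WT they were 3 lower (5.77% against 4.2%) and 1 higher (1.92% against 5.72%), and for ethanol minus untreated 4 lower (7.69% against 2.15%) and 0 higher (2.21% of all). The counts rested on single pools. For ethanol minus untreated the lower count was 1 without the Foxo4_KO untreated pool (1.92% against 2.6% of all) or without the Foxo4_KO ethanol pool (1.92% against 1.68%) and 2 without the WT ethanol pool (3.85% against 1.66%). For Foxo4_KO minus WT it was 1 without either untreated pool (1.92% against 3.32%). For TNBS the lower counts moved likewise, and the share of all probes moved with them. Without the Foxo4_KO TNBS pool count and share fell, against ethanol and against untreated, and without the WT TNBS pool they rose. Against ethanol they fell without the Foxo4_KO ethanol pool and rose without the WT ethanol pool. Against untreated they fell without either untreated pool. Against ethanol, the share of members lower did not exceed that of all probes once the Foxo4_KO ethanol pool was left out. The same held against untreated without the Foxo4_KO TNBS or the WT untreated pool. These fits leave 1 pool in a group of the contrast.

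**Figure D1:**
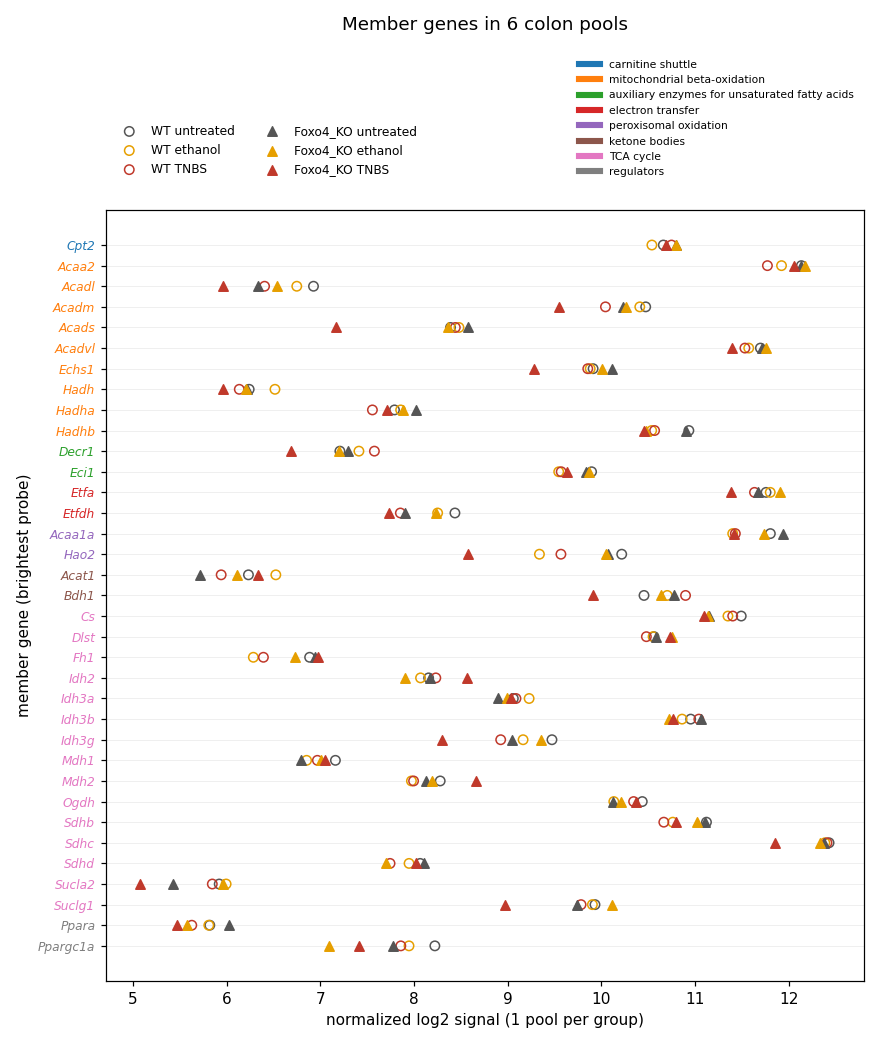
Normalized log2 signal (x axis) of each member gene above background, by its brightest probe (y axis, names coloured by role). Circles are the 3 WT pools and triangles the 3 Foxo4_KO pools, in grey for untreated, orange for ethanol and red for TNBS. The red triangle of Acads, at 7.17, lies apart from its other 5 pools at 8.36 to 8.58.

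With 1 pool per group, the sentences that follow compare single pools and carry no test. Most members that stood 2-fold apart did so in the knockout after TNBS. Between the TNBS and the ethanol pool of Foxo4_KO mice, 8 of the 52 member probes (15.4%) were at least 2-fold lower with TNBS, against 2.33% of all probes, and 0 were at least 2-fold higher, against 2.41%. The lower count was 5 (9.62%, against 1.21% of all) under median scaling, 4 of 35 (11.4% against 1.61%) with 1 probe per gene, and 3 of 43 (6.98% against 1.68%) without the probes whose target name starts with scl000, described further on. These 8 probes belong to Acaa2 (2 probes), Hadhb, Hao2, Etfa, Acads, Suclg1 and Idh3g. Between the same treatments in WT mice 0 of 49 member probes were 2-fold lower (0.156% of all) and 0 were 2-fold higher (1.19% of all). In the TNBS pools, 2 of 51 member probes (3.92%) were at least 2-fold lower in Foxo4_KO than in WT, against 1.59% of all, namely Acads and 1 probe of Hadhb, and 0 were 2-fold higher (3.04% of all). This count changed with the processing. Under median scaling it was 0 lower (0.552% of all) and 1 higher (8.58% of all), and it was 1 lower without background correction, with the authors' values, with an offset of 50, with 1 probe per gene and without scl000 targets. No member probe reached 2-fold between genotypes in the untreated pools (1.11% of all higher and 0.583% lower) or the ethanol pools (3.87% and 0.57%), or between ethanol and untreated in WT (0.688% and 0.669%) or Foxo4_KO mice (1.67% and 0.38%). The Foxo4_KO TNBS pool was the lowest of the 6 for 24 of the 52 member probes (46.2%, against 28.1% of all probes) and the highest for 5 (9.62%, against 25.5%). The highest reading lay in the WT untreated pool for 16 probes (30.8%, against 19.9% of all) and in the Foxo4_KO untreated pool for 13 (25.0%, against 13%), so untreated mucosa often held the top value. It lay in the WT ethanol, WT TNBS and Foxo4_KO ethanol pools for 6, 3 and 9 probes (14.9%, 14.4% and 12.2% of all). The lowest lay in the WT untreated, WT ethanol and WT TNBS pools for 5, 8 and 4 probes (14.5%, 12.3% and 13% of all) and in the Foxo4_KO untreated and ethanol pools for 4 and 7 (16.4% and 15.6% of all).

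Most probes of the beta-oxidation enzymes read lower after TNBS, and most probes of the TCA cycle enzymes did not. Of the 16 probes of the 9 core beta-oxidation enzymes, 15 read lower with TNBS than with ethanol in the knockout, with a median of -0.60, and 14 read lower in WT, with a median of -0.28. Of the 21 TCA cycle probes, 14 read higher with TNBS in the knockout, with a median of 0.05, and 11 in WT, with a median of 0.02. Over all 11772 probes the medians were 0.01 in the knockout and -0.01 in WT, and 49.1% and 51.9% of probes read lower. Under median scaling in place of quantile normalization the median of all probes in the knockout comparison shifted to 0.30, and relative to that shift the beta-oxidation median was -0.56 and that of the TCA cycle 0.17. Under that scaling 11 of 16 beta-oxidation probes (68.8%) and 4 of 21 TCA probes (19.0%) lay below 0, against 23.9% of all probes. With only the brightest probe of each gene, all 9 beta-oxidation enzymes were lower with TNBS in the knockout (median -0.36), and 7 of 15 TCA genes were (median 0.04). Without the scl000 probes, 10 of 11 beta-oxidation probes were lower, with a median of -0.25. The difference between these role groups was not tested.

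**Figure D2:**
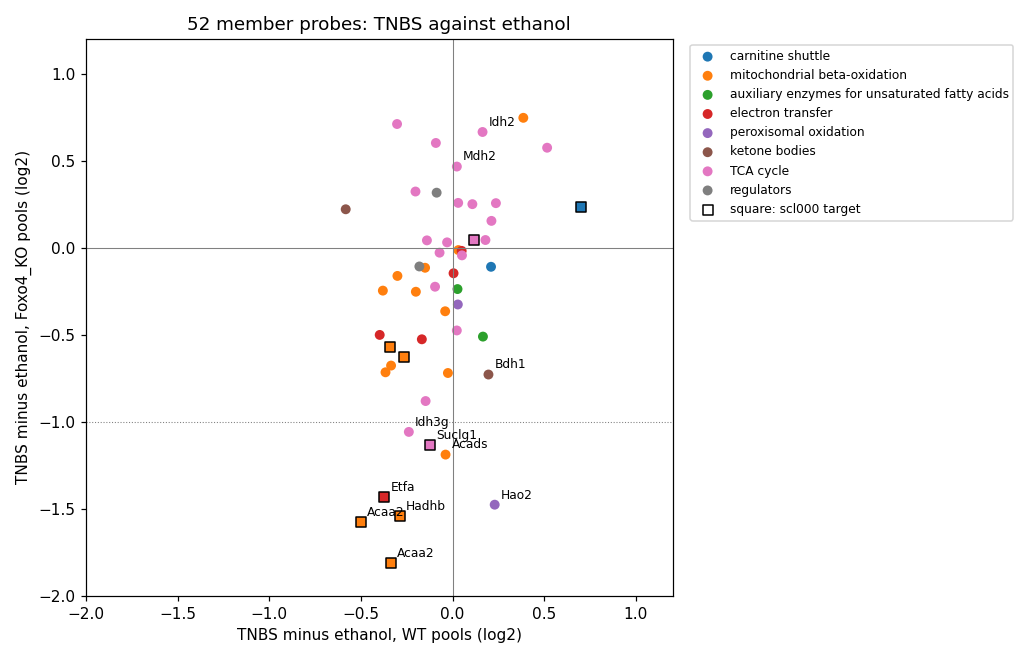
TNBS minus ethanol in log2 for each of the 52 member probes, in WT (x axis) and Foxo4_KO pools (y axis). Colours give the role, squares with a black edge the probes whose target name starts with scl000, and the dotted line a 2-fold lower signal in the knockout, under which 8 probes lie.

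Among the acyl-CoA dehydrogenases, Acads, which acts on short chains including butyrate, read 8.39 untreated, 8.48 after ethanol and 8.44 after TNBS in WT mice. In Foxo4_KO mice it read 8.58, 8.36 and 7.17 in that order, which is kept below. The knockout TNBS pool alone was low, 2.28-fold below the knockout ethanol pool and 2.41-fold below the WT TNBS pool. Under median scaling these log2 differences were -0.83 and -0.86, short of 2-fold. The low reading was present before normalization, at an unnormalized signal of 220.9 against 354.6 to 402.7 in the other 5 pools, on the array with the highest mean signal. Acadm, the medium-chain dehydrogenase, was read by a pair of probes that ran together. The brighter read 10.47, 10.41 and 10.04 for WT and 10.22, 10.26 and 9.54 for Foxo4_KO pools, and the dimmer read 9.22, 9.13 and 8.87 for WT and 8.77, 8.99 and 8.36 for Foxo4_KO pools. Both probes were lowest with TNBS in each genotype. For the brighter one the additive fit gave TNBS minus ethanol as -0.54 ± 0.17 (SE, limma adjusted p = 0.698).

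Acadvl, the very-long-chain dehydrogenase, had the narrowest range of the core enzymes by their brightest probes, 0.36, with 11.70, 11.57 and 11.53 for WT and 11.72, 11.76 and 11.39 for Foxo4_KO pools. The pools of the genotypes overlapped. The long-chain dehydrogenase Acadl read 6.93, 6.75 and 6.40 for WT and 6.33, 6.54 and 5.97 for Foxo4_KO pools with 1 probe. Its other probe was above background only in the Foxo4_KO TNBS pool, where it read 5.77 against 4.97 to 5.36 elsewhere, so the probes of this gene disagree in direction.

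Of the enzymes that follow, Echs1, the short-chain enoyl-CoA hydratase, read 9.91, 9.88 and 9.85 for WT and 10.11, 10.00 and 9.29 for Foxo4_KO pools with its brighter probe. As with Acads, only the knockout TNBS pool was low with this probe. The dimmer Echs1 probe, above background on all 6 arrays, read 6.30, 6.76 and 6.55 for WT and 6.91, 6.59 and 6.34 for Foxo4_KO pools. It was lowest in the WT untreated pool, so the probes disagree. Hadha and Hadhb, the subunits of the mitochondrial trifunctional protein, which acts on long chains, did not show the pattern of Acads with their brightest probes. Hadha read 7.79, 7.86 and 7.56 for WT and 8.02, 7.88 and 7.72 for Foxo4_KO pools, and Hadhb read 10.93, 10.54 and 10.57 for WT and 10.90, 10.47 and 10.46 for Foxo4_KO pools. For Hadhb both untreated pools were high and the 4 enema pools lay within 0.11 of each other. Hadh, the 3-hydroxyacyl-CoA dehydrogenase for shorter chains, was near background in all pools, at 6.24, 6.52 and 6.13 for WT and 6.22, 6.21 and 5.96 for Foxo4_KO pools with its brighter probe.

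Acaa2, the mitochondrial thiolase, shows how the answer depends on the probe. Its brightest probe read 12.13, 11.92 and 11.77 for WT and 12.12, 12.17 and 12.05 for Foxo4_KO pools, a difference of -0.11 between TNBS and ethanol in the knockout. The other probes gave -1.81 and -1.58 for the same pools, with 9.90 and 9.65 after ethanol and 8.09 and 8.08 after TNBS. Both are named in the array's target column with a prefix of scl000, a prefix that the sources used here do not explain. The same split was seen in Hadhb, where the scl000 probe gave -1.54 and the other -0.01, and in Etfa, where it gave -1.43 against -0.53 and -0.15. In Suclg1 the scl000 probe gave -1.14 and the other, above background on 3 arrays, 0.57. In Acadm the probes were close to each other, with -0.63 for the scl000 probe against -0.72. In Cpt2 the scl000 probe was the higher, with 0.23 against -0.11, so those probes differ in direction. Over the whole array, 719 scl000 probes above background on all 6 arrays had a median of -0.30 between TNBS and ethanol in the knockout. Within 436 genes that hold an scl000 probe and another, the scl000 probe was the lower in 71.1%, with a median difference of -0.29. Of the 8 member probes that were 2-fold lower, 5 are of this kind, and Acads, Hao2 and Idh3g are not. Under median scaling, where the lower count was 5, Acads fell short of 2-fold and Hao2 stood at -1.04. Why the kinds of probe differ on this array was not tested.

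**Figure D3:**
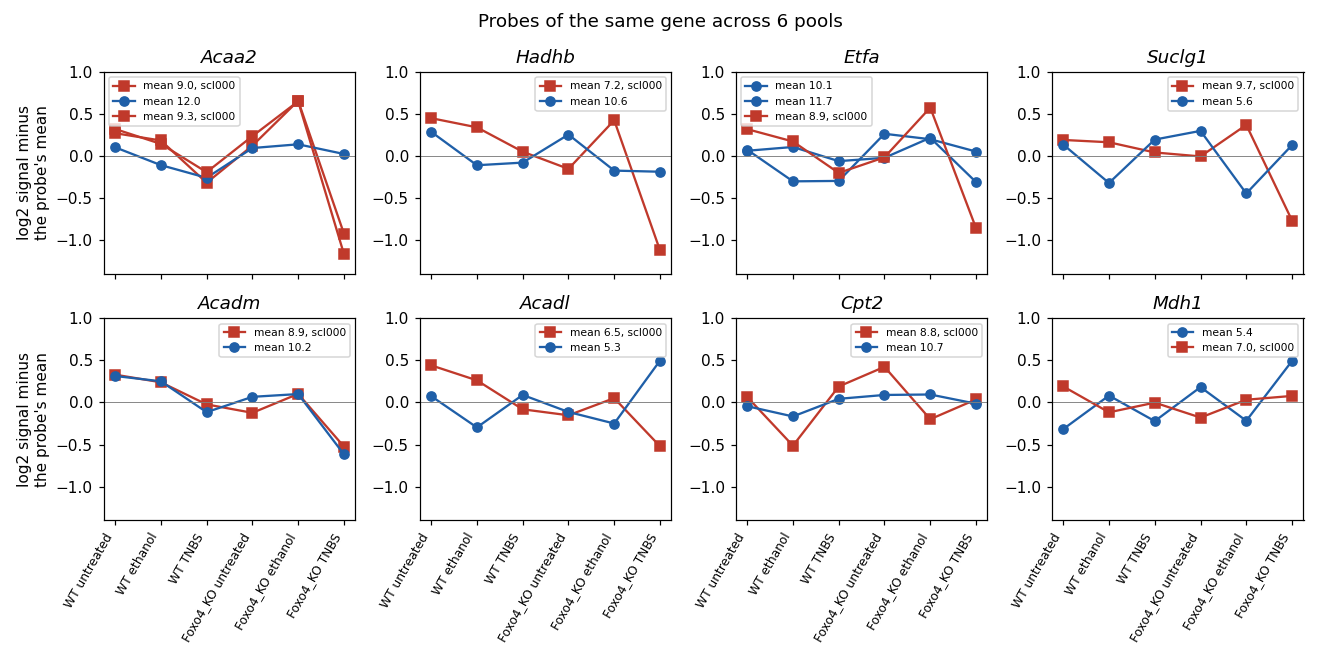
Log2 signal minus the probe's own mean (y axis) over the 6 pools (x axis) for 8 member genes with an scl000 probe (red squares) and another (blue circles); legends give each probe's mean. In Acaa2, Hadhb, Etfa and Suclg1 the red lines drop in the Foxo4_KO TNBS pool, where the blue lines drop less or not at all.

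The genes around the spiral were less uniform. Cpt2, which hands long-chain acyl groups to mitochondrial CoA, was the only measured gene of the carnitine shuttle. With its brighter probe it read 10.66, 10.54 and 10.75 for WT and 10.79, 10.80 and 10.69 for Foxo4_KO pools, a range of 0.26. The dimmer Cpt2 probe, above background on all 6 arrays, read 8.86, 8.28 and 8.98 for WT and 9.21, 8.59 and 8.83 for Foxo4_KO pools. Its range was 0.94 and it was lowest after ethanol in each genotype, so the probes disagree. Eci1, an isomerase for unsaturated chains, read 9.89, 9.54 and 9.57 for WT and 9.83, 9.87 and 9.63 for Foxo4_KO pools. Decr1, the 2,4-dienoyl-CoA reductase, read 7.21, 7.41 and 7.58 for WT and 7.30, 7.20 and 6.69 for Foxo4_KO pools. After TNBS it was thus the highest of all pools in WT and the lowest in the knockout. Under median scaling its difference between TNBS and ethanol in the knockout was -0.21 in place of -0.51. Etfa, a subunit of electron transfer flavoprotein, read 11.76, 11.80 and 11.63 for WT and 11.67, 11.91 and 11.38 for Foxo4_KO pools with its brightest probe. Etfdh, which passes those electrons to ubiquinone, read 8.44, 8.25 and 7.85 for WT and 7.91, 8.23 and 7.73 for Foxo4_KO pools with its brighter probe, lowest in both TNBS pools. Its dimmer probe, above background on all 6 arrays, read 5.81, 5.95 and 6.00 for WT and 6.15, 5.91 and 5.89 for Foxo4_KO pools and was lowest in the WT untreated pool, so the probes disagree.

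Hao2, a peroxisomal 2-hydroxy acid oxidase, varied most among these genes by their brightest probes, over a range of 1.64. It read 10.22, 9.34 and 9.57 for WT and 10.07, 10.05 and 8.58 for Foxo4_KO pools. In WT mice the untreated pool was high and both enema pools were low, whereas in knockout mice the TNBS pool alone was low, 2.78-fold below the ethanol pool. Its unnormalized signal was 523.2 there, against 630.9 to 1221.3 in the other pools. In the additive fit TNBS minus untreated was -1.07 ± 0.38 (SE, limma adjusted p = 0.403). Acaa1a, a peroxisomal thiolase, read 11.80, 11.40 and 11.43 for WT and 11.94, 11.74 and 11.41 for Foxo4_KO pools, and both untreated pools were its highest.

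Untreated and enema pools also differed in Xist, a noncoding RNA made from the inactive X of females, which read 9.85 and 10.36 in the WT and Foxo4_KO untreated pools and 5.51 to 7.51 in the 4 enema pools. The makeup of the pools by sex and the enema cannot be told apart in any value that sets untreated against enema pools, among them the counts for ethanol minus untreated and TNBS minus untreated, the share of top values in untreated pools, and the readings of Acaa1a and Hadhb.

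**Figure D4:**
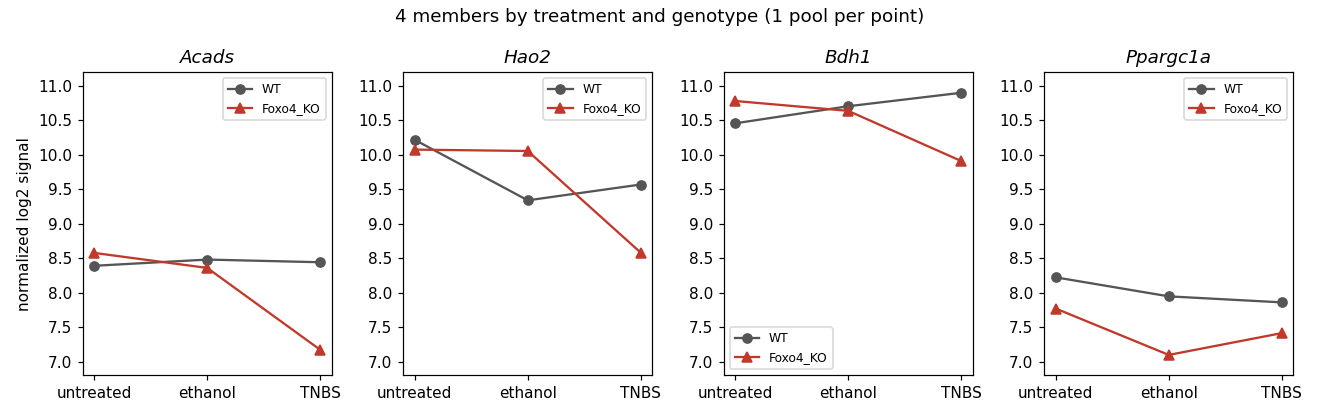
Normalized log2 signal (y axis) of Acads, Hao2, Bdh1 and Ppargc1a by treatment (x axis), in WT (grey circles) and Foxo4_KO pools (red triangles), 1 pool per point. Acads, Hao2 and Bdh1 are lowest in the Foxo4_KO TNBS pool, at 7.17, 8.58 and 9.91, and Ppargc1a is lower in the knockout in every treatment.

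Bdh1, the mitochondrial 3-hydroxybutyrate dehydrogenase of ketone body metabolism, read 10.45, 10.70 and 10.90 for WT and 10.78, 10.63 and 9.91 for Foxo4_KO pools. It was highest after TNBS in WT and lowest after TNBS in the knockout, a difference of -0.99 between the TNBS pools. Under median scaling its difference between TNBS and ethanol in the knockout was -0.28 in place of -0.73. Acat1, the mitochondrial acetoacetyl-CoA thiolase, went the other way at a low signal, with 6.23, 6.52 and 5.94 for WT and 5.72, 6.11 and 6.34 for Foxo4_KO pools. The untreated knockout pool was not above background for Acat1.

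In the TCA cycle, citrate synthase (Cs), the entry step, read 11.49, 11.35 and 11.40 for WT and 11.14, 11.13 and 11.09 for Foxo4_KO pools. The 3 knockout pools all lay below the 3 WT pools, by -0.22 to -0.35 at matched treatment. This was so for 4 of the 52 member probes (7.69%), those of Cs, Idh3a, Sdhc and Ppargc1a, against 7.95% of all probes, and the reverse for 1, the brightest of Dlst (1.92% against 5.68%). These orders were read after quantile normalization. Under median scaling the median of all probes for Foxo4_KO minus WT with TNBS was 0.35 in place of -0.01, so they may not hold there. The additive fit gave -0.29 ± 0.13 (SE) for Cs (limma adjusted p = 0.543).

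The subunits of NAD-dependent isocitrate dehydrogenase differed among themselves. Idh3g, a regulatory subunit, read 9.47, 9.16 and 8.92 for WT and 9.05, 9.36 and 8.30 for Foxo4_KO pools, with both TNBS pools the lowest. After quantile normalization it was 2.08-fold lower with TNBS than with ethanol in the knockout, close to the 2-fold limit. Idh3a, the catalytic subunit, read 9.06, 9.23 and 9.09 for WT and 8.90, 9.0 and 9.04 for Foxo4_KO pools. Idh3b read 10.95, 10.86 and 11.04 for WT and 11.07, 10.72 and 10.77 for Foxo4_KO pools with its brighter probe. Neither of these had its lowest value in the knockout TNBS pool. Idh2, the NADP-dependent mitochondrial enzyme, read 8.16, 8.07 and 8.23 for WT and 8.17, 7.90 and 8.57 for Foxo4_KO pools, so that the TNBS pool was the highest in each genotype.

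Mdh2, the mitochondrial malate dehydrogenase, read 8.28, 7.97 and 7.99 for WT and 8.13, 8.19 and 8.66 for Foxo4_KO pools. The knockout TNBS pool was the highest, 1.58-fold above the WT TNBS pool. Fh1, which makes malate from fumarate, read 6.89, 6.28 and 6.39 for WT and 6.94, 6.72 and 6.98 for Foxo4_KO pools, low in the 2 WT enema pools. Mdh1, the cytosolic malate dehydrogenase, read 7.16, 6.85 and 6.97 for WT and 6.79, 7.0 and 7.05 for Foxo4_KO pools with its brighter probe, with no order by treatment or genotype.

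Of succinate dehydrogenase, which also serves the respiratory chain, the membrane anchor Sdhc read 12.43, 12.38 and 12.41 for WT and 12.37, 12.33 and 11.85 for Foxo4_KO pools. Its knockout TNBS pool was again the only low one. Under median scaling the Sdhc difference between TNBS and ethanol in the knockout was -0.13 in place of -0.48. The iron-sulfur subunit Sdhb read 11.12, 10.76 and 10.67 for WT and 11.10, 11.02 and 10.80 for Foxo4_KO pools, and the anchor Sdhd read 8.06, 7.95 and 7.74 for WT and 8.11, 7.70 and 8.03 for Foxo4_KO pools. These subunits did not share 1 pattern. Suclg1, the shared subunit of succinyl-CoA synthetase, read 9.93, 9.90 and 9.78 for WT and 9.73, 10.11 and 8.97 for Foxo4_KO pools with its brighter probe, the scl000 probe described above. Sucla2, the ADP-forming partner, was above background on 3 arrays, those of the WT untreated and both ethanol pools. With its brighter probe it read 5.92, 5.99 and 5.85 for WT and 5.43, 5.96 and 5.08 for Foxo4_KO pools. The lowest, the knockout TNBS pool, lay 1.84-fold below the knockout ethanol pool and was not above background. Of the oxoglutarate dehydrogenase complex, Ogdh ranged over 0.32 and the brightest probe of Dlst over 0.28, the narrowest range of the TCA cycle genes by their brightest probes. The other probes of these genes did not always follow. The 3 dimmer Dlst probes ranged over 0.32 to 0.70, with the highest reading in a different pool for each. A dimmer Idh3b probe read 0.60 higher after TNBS than after ethanol in the knockout, against 0.04 with the brighter one. The dimmer Mdh1 probe was above background in the knockout TNBS pool alone.

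Of the regulators, Ppargc1a read 8.22, 7.95 and 7.86 for WT and 7.77, 7.10 and 7.41 for Foxo4_KO pools. It was lower in the knockout in all 3 treatments, and the additive fit gave -0.58 ± 0.15 (SE), with the lowest adjusted p of the members in that contrast (limma adjusted p = 0.296). Under median scaling its difference between the TNBS pools was -0.01 in place of -0.45. Ppara was near background, above it on 4 arrays, and read 5.82, 5.81 and 5.63 for WT and 6.02, 5.58 and 5.47 for Foxo4_KO pools.

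Other genes of the same pathways were described from lists. Of 22 probes of 17 further fatty acid and ketone oxidation genes, 0 passed the limma test in any contrast. In the TNBS pools, 2 of the 22 were at least 2-fold lower in Foxo4_KO than in WT, counted whether or not they were above background there. Among all probes above background in 1 of those pools at least, 1.59% were. Between TNBS and ethanol in the knockout, 17 read lower and 1 was at least 2-fold lower, where 49.1% and 2.33% of all probes did so. The 1 was Decr2, a peroxisomal dienoyl-CoA reductase, which read 6.22 after ethanol and was not above background after TNBS. Of 11 probes of 8 further TCA cycle and pyruvate entry genes, 0 passed the test and 7 read lower in that comparison. Pdk4, a kinase that closes pyruvate dehydrogenase, was the 1 probe at least 2-fold lower there and read 7.62, 6.98 and 6.51 for WT and 7.60, 8.01 and 6.29 for Foxo4_KO pools, lowest after TNBS in each genotype. Of 19 probes of 15 respiratory chain genes, 0 passed the test, 11 read lower and 7 higher with TNBS in the knockout, and their median was -0.08. Of 5 probes of 5 butyrate uptake and activation genes, 0 passed the test, and the butyrate carrier Slc5a8 read 11.30, 11.28 and 11.49 for WT and 11.50, 11.60 and 11.41 for Foxo4_KO pools, with the genotypes overlapping. Of 8 probes of 6 PPAR and ERR regulator genes, 0 passed the test and 1, a dim probe of Pparg, was at least 2-fold lower with TNBS in the knockout.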

How the data were processed

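Per the labels' protocols, Trizol-extracted RNA went through a DNase step on RNeasy columns before labelling as biotin cRNA for bead arrays. The sources used here do not give the image software. The deposited unnormalized table holds the mean bead intensity of each probe with no background subtraction, and a detection p-value per the file headers, which rises with the signal and was read as 1 minus p. The authors' normalized intensity table, quantile normalized on the linear scale as its values show, carries the probe identifiers. The tables were joined by signal profile (46613 of 46632 probes), and 98.2% of 8102 Entrez numbers matched. Gene symbols are those of GEO's platform annotation, in which 29963 joined probes had 1 symbol, 10 several and 16640 none.

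Signals were normalized with neqc (limma 3.58.1, R 4.3.3, offset 16). Of the probes with 1 symbol, 11772 with detection p under 0.01 on at least 1 array were tested. The main test was lmFit and eBayes of genotype plus treatment over the 6 pools, in which the treatments serve as replicates of each genotype and the genotypes as replicates of each treatment, with 2 residual and 4.12 prior degrees of freedom and Benjamini-Hochberg adjustment over all probes. Residuals hold genotype-by-treatment differences, so unequal responses are less readily called. The number of arrays limits the precision. On simulated data for Foxo4_KO minus WT over 11772 probes, 94.6% of probes shifted by 1 (log2) and 100% of those shifted by 3 were called. Of all calls 7.93% were false, above the threshold of 0.05, and the treatment contrasts were not simulated. Each simulated data set held 200 changed probes and normal noise at the fitted SD of each probe, without genotype-by-treatment differences. The shares called there are thus not the power of the test on these pools. Differences between single pools are values without a test. Those at least 2-fold apart were counted over probes above background on at least 1 of the pair. Counts for the lists of other genes took every tested probe of the list. The members and lists were chosen with earlier results of these data known. Genes were named where a probe passed the adjusted p or was 2-fold apart in a pair of pools, by the largest and smallest range of each role group, and Ppara and Ppargc1a; further members are described for completeness of the roles. Alternatives were median scaling, no background correction, the authors' values, an offset of 50, other filters, 1 probe per gene, a trended and robust prior, each pool left out, and, chosen after seeing the data, no scl000 targets. Figures and tables used Python 3.11.15, pandas 2.3.3 and matplotlib 3.10.9.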

Additional observations from a re-analysis of the deposited data

Results flagged for a closer look

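For 18 of the 52 member probes above background, TNBS minus ethanol had opposite signs in WT and Foxo4_KO mice. With 1 pool per group the difference between the responses was not tested. No share over all probes stands beside this count, so it is not read as particular to the members. Of all probes, 51.9% read lower with TNBS in WT and 49.1% in the knockout. The response in the knockout less that in WT (log2) was -1.71 for Hao2, -0.92 for Bdh1, -0.68 for Decr1, -0.50 for Sdhc, -0.35 for Acaa1a, -0.32 for the brighter Cpt2 probe and -0.26 for Eci1. It was -0.15 for a dimmer Etfa probe, -0.0945 for Cs, -0.0670 for the dimmer Etfdh probe and -0.0446 for the brightest Hadhb probe. In the other direction it was 1.01 for the dimmer Mdh1 probe, above background on 1 array, 0.80 for Acat1, 0.69 for a dimmer Idh3b probe, 0.53 for Sdhd, 0.40 for Ppargc1a, 0.18 for Idh3a and 0.0613 for a dimmer Dlst probe. For Hao2 the difference between TNBS and ethanol was 0.23 in WT and -1.48 in the knockout.

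Under median scaling 10 of the 18 still moved in opposite directions. The other 8, Acaa1a, Cpt2, Eci1, Cs, Hadhb, and the dimmer probes of Etfa, Etfdh and Dlst, read higher with TNBS in both genotypes, with 0.10 in WT and 0.05 in the knockout for Acaa1a, 0.26 and 0.32 for Cpt2, and 0.06 and 0.16 for Eci1. All 18 kept opposite directions without background correction, with the authors' values and with an offset of 50.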

How the results depend on the processing

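Under every alternative run, 0 member probes passed the adjusted p of 0.05 in any of the 4 contrasts. Quantile normalization gives all arrays 1 distribution, and median scaling shifted the median of all probes to 0.30 (TNBS minus ethanol, Foxo4_KO) and 0.35 (Foxo4_KO minus WT, TNBS). With it the member probes at least 2-fold apart numbered 5 lower and 1 higher in the first of these comparisons (1.21% and 5.68% of all probes), 0 lower and 1 higher in the second (0.552% and 8.58% of all), and 1 lower for ethanol minus untreated in WT (1.07% of all). With 1 probe per gene the lower count for TNBS minus ethanol in Foxo4_KO was 4 of 35 (1.61% of all), and without scl000 targets 3 of 43 (1.68% of all). The lower count for Foxo4_KO minus WT with TNBS was 1 without background correction, with the authors' values, with an offset of 50, with 1 probe per gene and without scl000 targets, where 0.525%, 0.534%, 0.579%, 1.23% and 1.26% of all probes were lower in turn. Under median scaling TNBS minus ethanol in Foxo4_KO turned to 0.0263 for Acadvl and 0.0524 for Acaa1a (log2). The cause was not tested.

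With each pool left out in turn, the median of the member probes less that of all probes lay between -0.08 and 0.05 for Foxo4_KO minus WT, -0.15 and 0.02 for ethanol minus untreated, -0.17 and -0.06 for TNBS minus ethanol, and -0.30 and -0.10 for TNBS minus untreated. No paired analysis was possible because each group is 1 pool and the numbers in the labels count arrays, so no replicate block could be fitted, while the additive fit already sets the genotypes against each other within each treatment. Members near background, such as Ppara, Sucla2 and Hadh, have compressed differences at this signal.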
